A study of Mus musculus with 2 samples.

Results

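The TGF-beta, BMP and activin pathway was described in whole hearts of 2 mice. It was taken as 44 genes of 55536 in the deposited gene tables. They were chosen by symbol for their known place in the pathway, with earlier results of these data known. All 44 symbols were found. The genes fall into ligands, latent binding proteins, follistatins, receptors, co-receptors, SMADs and the Id genes, and a further 98 genes of the pathway served as its surroundings. Both animals were female hybrids of the C57BL/6J and CAST/EiJ strains (B6CASTF1/J) aged 25 days, and each gave 1 library made from 300 ng of total heart RNA with ERCC spike-ins. There is 1 group and no treatment, so the only comparison is between the 2 animals, called replicate 1 and replicate 2. The labels number the animals separately but give them the same donor entry.

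TGF-beta family ligands are secreted dimers that bring together type II and type I receptor kinases on the cell surface. The type I receptor then phosphorylates receptor-regulated SMADs, which join Smad4 and act on genes in the nucleus. TGF-betas and activins signal mainly through Smad2 and Smad3, and BMPs through Smad1, Smad5 and Smad9. In the heart the family is known for its part in valve and chamber formation, in trabecular growth and in fibrosis, and much of it is made by endothelial cells and fibroblasts.

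The libraries held 43190646 and 42954475 expected counts (reads assigned to genes), of which spike-ins made up 0.518% and 0.544%. Markers of cardiomyocytes summed to 20247 and 21212 TPM (a level scaled for transcript length and library size) in replicates 1 and 2 and all 6 were detected in both animals. All 6 were higher in replicate 2 at an adjusted p under 0.05 (exact binomial test, below), beside 9.42% of all genes. Their median log2 ratio of replicate 2 over replicate 1 was 0.12. A liver list of 6 genes summed to 2.83 and 26.7 TPM, and all 6 were called higher in replicate 2. In whole tissue, fewer cells of a type and less RNA per cell cannot be told apart. The libraries differed by more than sampling noise and were counted as 2 samples.

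The heart held most of the pathway at low to moderate levels. A level of at least 1 TPM in both animals was reached by 31 of the 44 genes (70.5%), beside 10985 of 22028 protein-coding genes (49.9%). At least 10 TPM in both was reached by 14 genes, 10 were under 1 TPM in both animals, and 3 (Inhba, Gdf11 and Fstl3) were under it in replicate 2 alone. The 44 genes together made up 537 TPM in replicate 1 and 469 TPM in replicate 2. The highest was the matrix protein gene Ltbp4 and the lowest by the mean of the animals was the receptor gene Bmpr1b, although Mstn was lower in replicate 1. In replicate 2 the TPM of 4 genes (Tgfb2, Fst, Bmpr1b and Smad3) lay just below their own deposited interval.

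**Figure D1:**
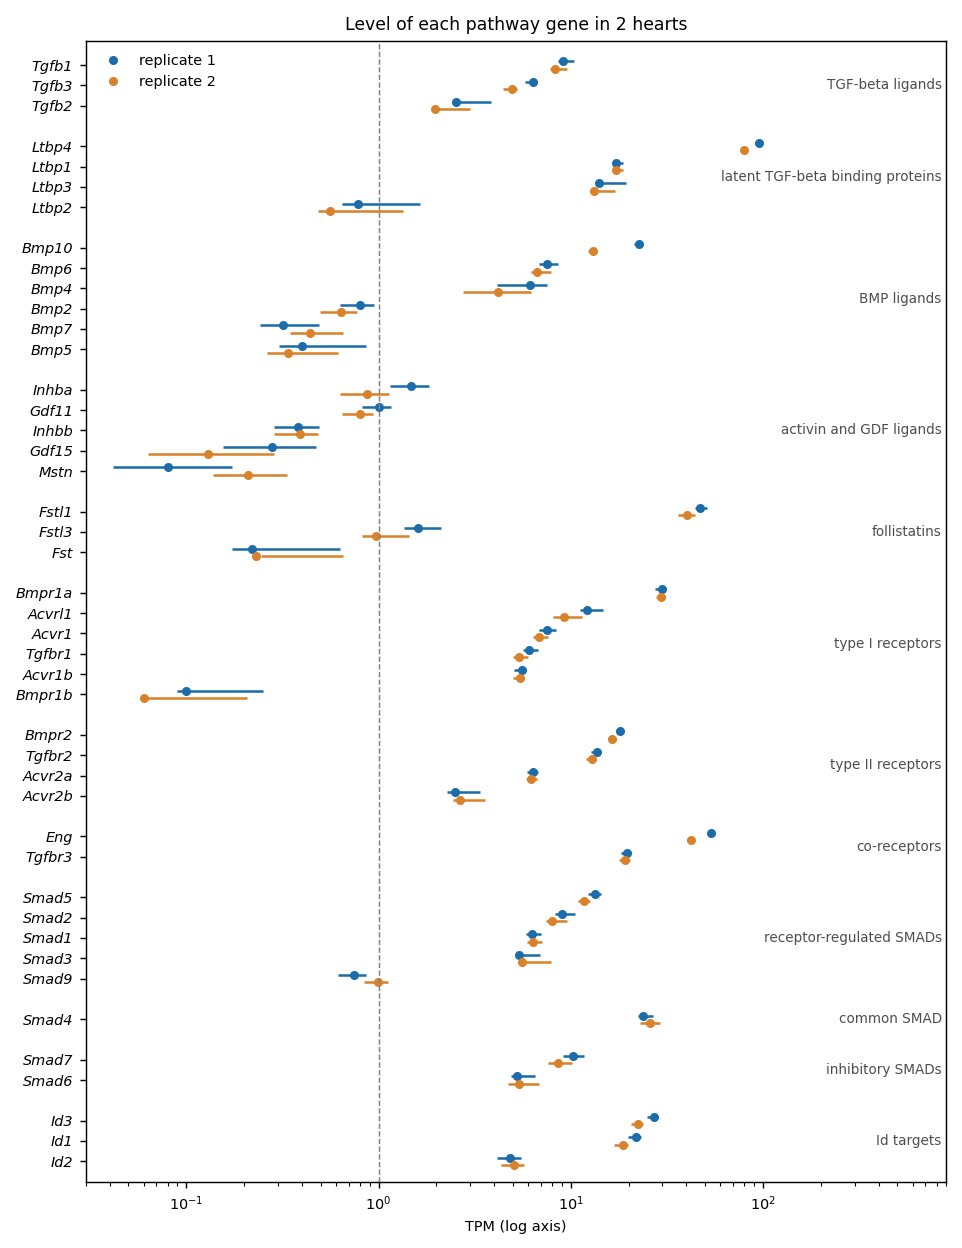
Level of each of the 44 genes in TPM on a log axis, grouped by role and ordered by mean within a role. Points are the 2 animals, bars are the deposited credibility intervals of each library, and the dashed line marks 1 TPM; activin and GDF ligands lie around or left of the line, while both co-receptors, Smad4 and the type II receptors lie to its right.

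Between the animals no gene of the pathway passed the full rule, which asked for a Benjamini-Hochberg adjusted p under 0.05 in a two-sided exact binomial test on scaled counts, a ratio of at least 2 and separate credibility intervals. The count was 0 of 43 tested, beside 0.821% of 15839 genes tested (0.524% higher in replicate 1 and 0.297% in replicate 2). Gdf15 had too few counts to be tested. At an unadjusted p under 0.05, 15 of the 43 differed, beside 29.9% of all genes tested. By adjusted p alone, at any ratio, 10 of 43 differed, beside 20.3% of all genes. Of these, 7 were higher in replicate 1 (10.9% of all genes) and 3 in replicate 2 (9.42%). The share is near that of all genes. Credibility intervals were separate for 8 of the 44, each time higher in replicate 1, beside 11.5% of all genes in either direction and 9.38% in that one. Without regard to a test, 25 of the 43 were higher in replicate 1, beside 49.8% of all genes. The median log2 ratio of replicate 2 over replicate 1 was -0.02 over the pathway and 0.00 over all genes, and the median size of a log2 ratio was 0.14 in both. The test compares 2 libraries and covers counting error only.

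**Figure D2:**
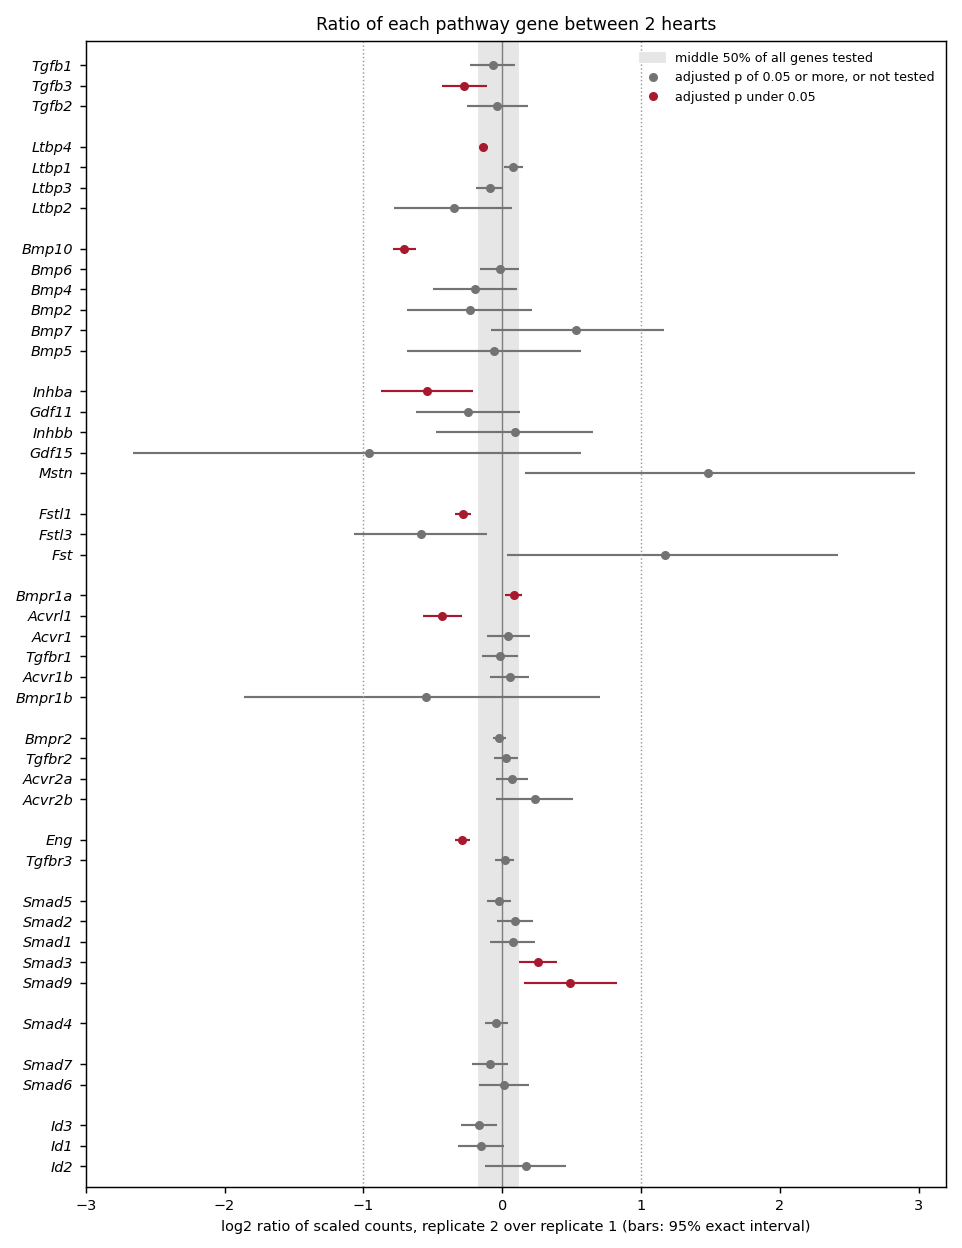
log2 ratio of scaled counts, replicate 2 over replicate 1, for each gene in the order of the plot of levels, with exact 95% intervals; red marks an adjusted p under 0.05, dotted lines mark a ratio of 2 and the grey band holds the middle 50% of all genes tested (-0.17 to 0.12). Bmp10 lies farthest to the left among the red points; scaling by spike-in totals would move every point by -0.10 and take Bmpr1a and 10 grey genes to the left of 0.

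Among the TGF-beta ligands, Tgfb1 was the highest, followed by Tgfb3 and Tgfb2. Tgfb1 (chr7:25687002-25705077, mm10), the main TGF-beta of fibrosis and immune regulation, had 9.16 TPM in replicate 1 and 8.26 TPM in replicate 2. Tgfb3 had 6.34 and 4.94 TPM. Tgfb2, which acts in valve and outflow tract development, had 2.52 and 1.96 TPM. The order was the same in both animals and the intervals of neighbours did not overlap. On the scale of log2(TPM + 0.1), Tgfb1 exceeded Tgfb3 by 0.63 ± 0.15 (SD, n = 2 animals) and Tgfb3 exceeded Tgfb2 by 1.29 ± 0.0047, or by 0.66 in the read-based tables. Only Tgfb3 of the 3 differed between the animals, with a ratio of 1.21 (95% interval 1.08 to 1.35) in favour of replicate 1 and an adjusted p of 0.00587 in the exact binomial test. Tgfb1 (adjusted p = 0.648) and Tgfb2 (0.897) did not pass.

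Tgfb2 carried a known choice of exon. The transcript Tgfb2-206 holds an extra coding exon of 84 bases (28 codons, chr1:186690721-186690804, minus strand, mm10) that Tgfb2-201 skips. It lies in the part of the precursor that is cut from the mature ligand. It is printed because it is the whole difference between the 2 coding forms inside the reading frame. The exon is in capitals, with 10 bases of the neighbouring exons in lower case, from the GENCODE M21 transcript:
Tgfb2-206: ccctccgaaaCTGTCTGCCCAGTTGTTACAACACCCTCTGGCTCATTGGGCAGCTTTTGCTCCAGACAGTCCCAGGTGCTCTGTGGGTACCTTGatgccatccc
Of the 2 coding transcripts, the form with the exon made up 18.2% in replicate 1 and 7.14% in replicate 2 (12.7% ± 7.81, SD, n = 2), on 45.4 and 17.0 expected counts. The read-based tables gave it 31.1% and 19.1%. The shorter form led in both animals by both quantifications, while the share of the longer one differed between the 2 quantifications by more than its SD over the animals.

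The latent TGF-beta binding proteins, which store TGF-beta in the matrix, were led by Ltbp4. It had 94.9 TPM in replicate 1 and 79.4 TPM in replicate 2 (15534 and 13755 counts), the highest level of the 44 genes. Ltbp1 followed with 17.2 and 17.1 TPM and Ltbp3 with 14.1 and 13.2 TPM. Ltbp2, the member of the family that does not bind latent TGF-beta, had 0.78 and 0.56 TPM. Ltbp4 exceeded Ltbp1 by 2.33 ± 0.18 on the log2(TPM + 0.1) scale. The intervals of Ltbp1 and Ltbp3 overlapped in both animals and so do not separate them. Ltbp1 still had the higher TPM in both, by 0.33 ± 0.06 on the same scale. Ltbp4 was 1.10 times as high in replicate 1 (95% interval 1.07 to 1.13, adjusted p = 2.16e-14, exact binomial test), a small difference on many counts. Ltbp1, Ltbp2 and Ltbp3 did not pass (adjusted p = 0.0861, 0.266 and 0.216).

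Ltbp1 and Ltbp4 each have an upstream start and a start inside the gene, and the 2 genes used them in opposite ways. In Ltbp1 the internal start (Ltbp1-202, first base 75178911 on chromosome 17) lies 173343 bases after the upstream one (Ltbp1-201, 75005568), and the coding length falls from 5136 to 4023 bases. Coding transcripts from the internal start made up 25.2% and 21.9% of the TPM of both groups (23.5% ± 2.35, SD, n = 2), or 31.4% and 28.4% read-based. In Ltbp4 the internal start (Ltbp4-205, 27333663 on chromosome 7, minus strand) lies 4029 bases after the upstream one (Ltbp4-201, 27337692), and the coding length is 4800 against 4998 bases. Here the internal start made up 99.5% and 99.5%, or 79.9% and 81.7% read-based. The 2 genes thus kept opposite orders in both animals and by both quantifications. The internal start of Ltbp4 carried 90.8 and 77.9 TPM, and its upstream start carried 0.47 and 0.43 TPM, against 19.5 and 15.7 TPM read-based.

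The RefSeq promoter windows (GRCm38.p6, from 250 bases before a start to 50 after) of these 4 starts are printed to show how unlike the paired starts are. Capitals mark GGCGCC, a GC-rich site that SMADs of the BMP branch are known to bind, where it occurs.
Ltbp1 upstream, chr17:75005279-75005578, plus strand: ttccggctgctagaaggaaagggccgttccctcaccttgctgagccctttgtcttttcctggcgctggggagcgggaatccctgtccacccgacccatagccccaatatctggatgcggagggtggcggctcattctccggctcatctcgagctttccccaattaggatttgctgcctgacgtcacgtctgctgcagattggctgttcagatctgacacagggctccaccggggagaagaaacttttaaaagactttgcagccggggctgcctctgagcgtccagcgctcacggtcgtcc
Ltbp1 internal, chr17:75178531-75178830, plus strand: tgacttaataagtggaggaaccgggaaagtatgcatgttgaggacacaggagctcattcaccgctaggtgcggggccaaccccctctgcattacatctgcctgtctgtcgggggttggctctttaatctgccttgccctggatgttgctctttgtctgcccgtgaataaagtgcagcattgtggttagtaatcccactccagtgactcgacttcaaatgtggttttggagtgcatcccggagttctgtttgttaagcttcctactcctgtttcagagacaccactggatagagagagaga
Ltbp4 upstream, chr7:27337563-27337862, minus strand: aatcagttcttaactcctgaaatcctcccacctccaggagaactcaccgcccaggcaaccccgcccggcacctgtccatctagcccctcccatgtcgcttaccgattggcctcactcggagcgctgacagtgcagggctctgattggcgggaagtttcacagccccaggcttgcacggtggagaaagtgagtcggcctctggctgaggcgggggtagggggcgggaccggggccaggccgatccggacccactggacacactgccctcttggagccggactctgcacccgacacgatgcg
Ltbp4 internal, chr7:27333614-27333913, minus strand: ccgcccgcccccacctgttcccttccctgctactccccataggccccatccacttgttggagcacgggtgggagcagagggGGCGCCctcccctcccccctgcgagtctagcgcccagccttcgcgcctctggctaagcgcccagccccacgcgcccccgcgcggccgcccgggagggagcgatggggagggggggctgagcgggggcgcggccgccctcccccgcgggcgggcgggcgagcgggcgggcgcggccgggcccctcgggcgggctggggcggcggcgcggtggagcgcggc
The internal Ltbp4 window was the richest in G and C at 81.3%, against 64.3% for its upstream window. In Ltbp1 it was the upstream window that was richer, at 58.7%. The first base of Ltbp4-205 is the RefSeq start of that window, while Ltbp1-202 starts after the end of the internal Ltbp1 window. Only the internal Ltbp4 window holds GGCGCC, at position -169 from its start.

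The BMP ligands were led by Bmp10, a ligand of the Acvrl1 receptor that is made in heart muscle, mainly in the atria after birth. Bmp10 (chr6:87428994-87437677) had 22.6 TPM in replicate 1 and 13.1 TPM in replicate 2, on 3357 and 2006 counts. It was 1.63 times as high in replicate 1 (95% interval 1.54 to 1.72, adjusted p = 1.04e-66, exact binomial test), and its intervals did not overlap. With the ratio asked for lowered from 2 to 1.5, Bmp10 alone of the 43 genes passed, beside 2.03% of all genes. The 4 atrial markers summed to 1475 TPM in replicate 1 and 1153 TPM in replicate 2. All 4 were higher in replicate 1, 3 of them at an adjusted p under 0.05, none was at 0, and the part of atrial tissue in the Bmp10 difference was not tested. Bmp10 has 1 annotated transcript, no other gene overlaps its exons, and its counts were whole numbers. Its promoter window, printed as that of the gene with the largest difference among those that passed, holds none of the 3 motifs searched:
Bmp10, chr6:87428744-87429043, plus strand: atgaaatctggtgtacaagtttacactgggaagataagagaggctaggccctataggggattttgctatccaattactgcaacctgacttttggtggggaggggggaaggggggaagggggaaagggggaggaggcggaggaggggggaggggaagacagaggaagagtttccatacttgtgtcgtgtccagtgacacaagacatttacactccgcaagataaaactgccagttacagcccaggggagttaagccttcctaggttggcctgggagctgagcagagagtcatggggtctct

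Below Bmp10 came Bmp6, a ligand known for its part in iron balance, with 7.53 and 6.65 TPM, and Bmp4, which patterns the early heart field, with 6.13 and 4.18 TPM. Their intervals overlapped in replicate 1. Bmp2, a ligand of valve formation, had 0.80 and 0.64 TPM. Bmp7 (0.32 and 0.44 TPM) and Bmp5 (0.40 and 0.34 TPM) were lower still and changed order between the animals. Thus 3 of the 6 BMP ligands were detected in both animals. Bmp4 exceeded Bmp2 by 2.66 ± 0.18 on the log2(TPM + 0.1) scale, a ratio of 6.33 in this scale. None of these 5 passed between the animals, and the nearest was Bmp7 (adjusted p = 0.23, 39 and 55 counts). In its exons Bmp5 is covered for 46.7% by the antisense gene Gm26903, which had 0 counts in both animals.

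No activin or GDF ligand reached 1 TPM in both animals. Inhba, a subunit of activin A, had 1.48 TPM in replicate 1 and 0.87 TPM in replicate 2. Its ratio was 1.45 in favour of replicate 1 (95% interval 1.16 to 1.83, adjusted p = 0.0083, exact binomial test on 191 and 128 counts). Gdf11 had 1.00 and 0.80 TPM and Inhbb, a subunit of activin B, had 0.38 and 0.39 TPM. Gdf15, a stress-induced hormone, had 0.28 and 0.13 TPM on 12 and 6 counts. Mstn, the brake on skeletal muscle growth, had 0.08 and 0.21 TPM on 7 and 19 counts. Its ratio of 2.79 had an interval of 1.12 to 7.85 and did not pass (adjusted p = 0.0774). Gdf15 and Mstn changed order between the animals, so the bottom of this group is not resolved at this depth.

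The follistatins, secreted proteins of which Fst and Fstl3 block activins, ranged from Fstl1 down to Fst. Fstl1, a secreted glycoprotein with a follistatin domain, had 46.8 TPM in replicate 1 and 40.3 TPM in replicate 2 and came after Ltbp4 and Eng among the 44 genes. Fstl3, which binds activins and myostatin, had 1.60 and 0.97 TPM. Fst, follistatin itself, had 0.22 and 0.23 TPM. Fstl1 exceeded Fstl3 by 5.01 ± 0.32 on the log2(TPM + 0.1) scale. It was 1.22 times as high in replicate 1 (95% interval 1.17 to 1.27, adjusted p = 3.03e-21, exact binomial test). Fstl3 had a ratio of 1.499 that did not pass (adjusted p = 0.0641, 97 and 63 counts), and 47.3% of its exons lie opposite Prss57, which had 0 counts. Fst had 10 and 22 counts yet nearly equal TPM, and its leading transcript by share of TPM differed between the animals. Fst-203, which is not annotated as protein-coding, held 45.1% and Fst-201 44.4% in replicate 1, and Fst-202 held 93.9% in replicate 2.

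Type I receptors were led by Bmpr1a, the broad BMP receptor, with 29.8 TPM in replicate 1 and 29.6 TPM in replicate 2. Acvrl1, the endothelial receptor for Bmp10, had 12.1 and 9.27 TPM. Acvr1, another BMP receptor, had 7.5 and 6.87 TPM. Tgfbr1, the TGF-beta type I receptor, had 6.06 and 5.39 TPM, and Acvr1b, the activin type I receptor, had 5.56 and 5.44 TPM. Tgfbr1 and Acvr1b had overlapping intervals and could not be ordered. Bmpr1b was close to absent, with 0.10 and 0.06 TPM on 15 and 10 counts. Bmpr1a exceeded Bmpr1b by 7.38 ± 0.22 on the log2(TPM + 0.1) scale, the widest gap of the 25 pairs of close relatives compared.

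Acvrl1 differed between the animals, with a ratio of 1.35 in favour of replicate 1 (95% interval 1.22 to 1.49, adjusted p = 1.9e-08, exact binomial test on 997 and 720 counts). Its credibility intervals overlapped. Bmpr1a was 1.06 times as high in replicate 2 (adjusted p = 0.0353), but its log2 ratio of 0.08 became -0.02 with spike-in scaling and -0.01 on the TPM scale, so its direction is not settled. The other 4 type I receptors did not pass. The 6 endothelial markers summed to 510 TPM in replicate 1 and 419 TPM in replicate 2, 5 of 6 at an adjusted p under 0.05 higher in replicate 1 and none at 0. The 4 endocardial markers summed to 40.0 and 41.5 TPM, with 0 higher in replicate 1 and 2 higher in replicate 2 at an adjusted p under 0.05 and none at 0. The part of either cell type in the Acvrl1 difference, or in that of Eng below, was not tested.

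All 4 type II receptors were detected. Bmpr2, the BMP type II receptor, had 18.0 and 16.5 TPM. Tgfbr2, the TGF-beta type II receptor, had 13.7 and 12.9 TPM. Acvr2a and Acvr2b, which serve activins, GDFs and BMPs, had 6.38 and 6.23 TPM, and 2.51 and 2.64 TPM. The order was the same in both animals, and no neighbours' intervals overlapped. None of the 4 passed between the animals. Bmpr2 had separate TPM intervals, higher in replicate 1, but a ratio of scaled counts of 1.02 (0.983 to 1.05, adjusted p = 0.587, exact binomial test). The intervals are on the TPM scale and the ratio is on TMM-scaled counts.

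Tgfbr2 and Acvr2b each carried an optional coding segment. Tgfbr2-202 holds an exon of 75 bases (25 codons, chr9:116158271-116158345, minus strand) that Tgfbr2-201 skips. Acvr2b-202 and Acvr2b-201 read through 72 bases (24 codons, chr9:119428353-119428424, plus strand) as part of a longer exon, and Acvr2b-205 removes them as an intron. The segments are printed as the coding difference between receptor forms, in capitals, with 10 bases of the transcript on either side:
Tgfbr2-202: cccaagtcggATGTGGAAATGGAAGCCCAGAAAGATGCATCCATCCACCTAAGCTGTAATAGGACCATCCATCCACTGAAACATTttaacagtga
Acvr2b-202: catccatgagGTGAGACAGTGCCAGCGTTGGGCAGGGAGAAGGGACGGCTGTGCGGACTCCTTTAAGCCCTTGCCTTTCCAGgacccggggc
The Tgfbr2 exon was in 27.9% and 30.2% of the TPM of its 2 coding transcripts (29.1% ± 1.62, SD, n = 2), or 24.8% and 26.6% read-based. The Acvr2b segment was in 26.9% and 29.4% (28.1% ± 1.79), or 34.1% and 33.9% read-based. Both receptors thus had the shorter form in the majority in both animals. The Acvr2b values rest on few reads, with 28.0 and 40.0 expected counts for Acvr2b-202.

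**Figure D3:**
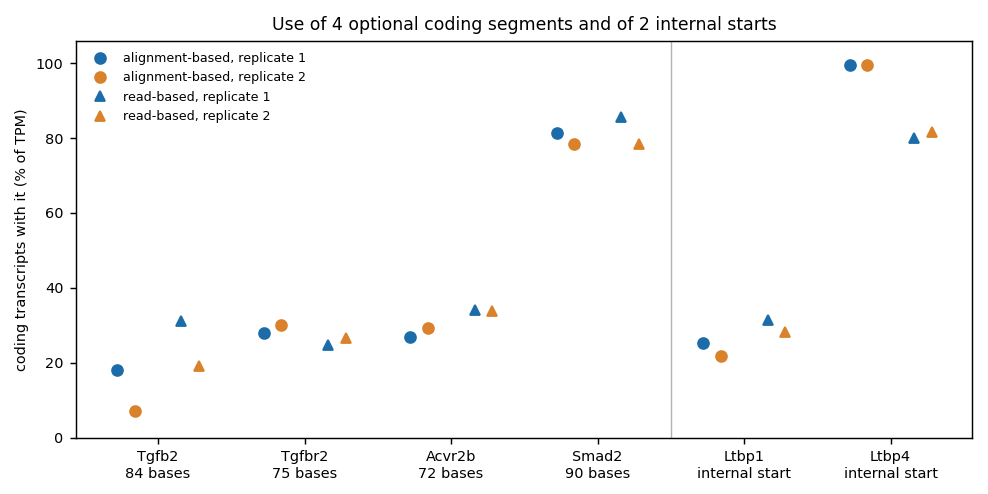
Share of coding transcripts, in % of TPM, that hold an optional coding segment (left 4 genes) or begin at the internal start (right 2 genes), in each animal by each quantification. The longer forms of Tgfb2, Tgfbr2 and Acvr2b lie under 35%, the longer form of Smad2 above 75%, and the internal start is the minor one in Ltbp1 and the main one in Ltbp4.

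Both co-receptors were among the higher genes. Eng, endoglin, which presents BMP ligands to Acvrl1 on endothelial cells, had 53.8 TPM in replicate 1 and 42.0 TPM in replicate 2, second to Ltbp4. Tgfbr3, betaglycan, which presents Tgfb2 and inhibin, had 19.6 and 19.2 TPM. Eng was 1.22 times as high in replicate 1 (95% interval 1.17 to 1.27, adjusted p = 5.95e-22, exact binomial test). Its partner Acvrl1 (ratio 1.35) and their ligand Bmp10 (ratio 1.63) were also higher in replicate 1, each by its own test above. Of the BMP branch, Bmpr2, Smad1 and Smad5 did not pass, and Smad9 was higher in replicate 2. A link between these differences was not tested. Tgfbr3 did not pass (adjusted p = 0.806). Exons of another gene overlap those of 15 of the 44 genes, 13 on the opposite strand and 2 on the same strand. One of the latter is Tgfbr3, where Gm43422 shares 4.54% of the exonic bases, and Tgfbr3 was the only gene of the 44 whose counts were not whole numbers.

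Smad4, the common partner of the receptor-regulated SMADs, was the highest SMAD with 23.7 and 25.8 TPM. Of the BMP branch, Smad5 had 13.3 and 11.8 TPM, Smad1 had 6.26 and 6.35 TPM and Smad9 had 0.75 and 0.99 TPM. Of the TGF-beta and activin branch, Smad2 had 9.02 and 8.01 TPM and Smad3 had 5.38 and 5.60 TPM. Smad5 exceeded Smad1 by 0.98 ± 0.14 and Smad2 exceeded Smad3 by 0.62 ± 0.16 on the log2(TPM + 0.1) scale. Each branch thus had 1 leading SMAD in both animals, with Smad9 the lowest. The intervals of Smad1 and Smad3 overlapped.

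Smad3 and Smad9 were the members of this group that differed between the animals, both in favour of replicate 2. Smad3 had 823 and 957 counts and a ratio of 1.19 (95% interval 1.09 to 1.31, adjusted p = 0.00181, exact binomial test). Smad9 had 133 and 182 counts and a ratio of 1.41 (1.12 to 1.77, adjusted p = 0.0176). Neither passed with spike-in scaling, and the intervals of both overlapped between the animals. Smad1, Smad2, Smad4 and Smad5 did not pass. Smad2 also has an optional coding exon, of 90 bases (30 codons), which is known to keep the longer form of the protein from binding DNA directly. Of its coding transcripts, those with the exon made up 81.4% and 78.4% (79.9% ± 2.10, SD, n = 2), or 85.7% and 78.5% read-based.

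The inhibitory SMADs are induced by the pathway and feed back on it. Smad7, which blocks both branches, had 10.2 TPM in replicate 1 and 8.63 TPM in replicate 2. Smad6, which acts mainly on the BMP branch, had 5.25 and 5.36 TPM. Smad7 exceeded Smad6 by 0.81 ± 0.19 on the log2(TPM + 0.1) scale, and neither passed between the animals (adjusted p = 0.39 and 0.959).

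The Id genes are direct BMP targets that bind and block helix-loop-helix transcription factors. Id3 had 27.0 TPM in replicate 1 and 22.4 TPM in replicate 2. Id1 had 21.9 and 18.7 TPM, and Id2 had 4.84 and 5.05 TPM. Id3 exceeded Id1 by 0.28 ± 0.03 and Id1 exceeded Id2 by 2.01 ± 0.20 on the log2(TPM + 0.1) scale, with no overlap of intervals. None passed between the animals. Id3 was the nearest at an adjusted p of 0.0522 (1032 and 894 counts), and it passed, higher in replicate 1, with each other scaling and with read-based counts (adjusted p from 4.00e-04 to 0.0427). Id1 (adjusted p = 0.212) passed with spike-in totals (0.0144) and read-based counts (0.0446).

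Promoter windows were found in RefSeq for 34 of the 44 genes, 43 windows in all. GGCGCC was in 10 of 43, beside 11.9% of all 32851 windows of the same length. These 10 windows belong to 8 of the 34 genes, because overlapping windows of Ltbp4 and of Smad5 were counted separately. TATAAA, the TATA box, was in 6 of 43, beside 13.6% of all windows. The palindromic SMAD site GTCTAGAC was in 1, that of Smad6, beside 0.213% of all windows. Both strands were searched, and no printed window holds more than 1 of the 3 motifs. The Smad6 window, printed for this match in capitals, holds it from position -4 across its start:
Smad6, chr9:64022010-64022309, minus strand: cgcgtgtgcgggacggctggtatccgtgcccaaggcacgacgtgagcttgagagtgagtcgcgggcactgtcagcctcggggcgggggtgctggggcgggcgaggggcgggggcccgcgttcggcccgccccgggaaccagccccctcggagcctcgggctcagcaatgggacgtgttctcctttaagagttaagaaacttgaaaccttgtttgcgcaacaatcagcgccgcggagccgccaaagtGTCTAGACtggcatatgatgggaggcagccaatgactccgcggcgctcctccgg
A match is a run of letters in the window and not a measured binding site.

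For most detected genes of the pathway, as for most genes, the leading transcript (the one with the highest share of its gene) was the same in both animals. The 44 genes have 188 annotated transcripts, up to 12 for a gene (Ltbp3), and 7 genes have only 1. Of 28 detected genes with several transcripts, 27 had the same leading transcript in both animals, beside 89.5% of 10332 genes. Read-based tables gave 25 of 28, beside 86.2%. The alignment-based and read-based tables named the same transcript in 27 of 28 genes in replicate 1 and in 25 of 28 in replicate 2, beside 75.2% of all such genes in either animal. In 15 of the 37 genes with several transcripts, the leading one held at least 90% in both animals, as in Tgfb1 (97.3% and 98.6%), Bmpr2 (97.4% and 98.7%) and Id1 (94.8% and 97.4%). The share over all genes is not given here, so this count is not read as particular to the pathway. It includes genes with few counts, such as Mstn (7 and 19) and Gdf15 (12 and 6).

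Bmp4 was the exception among detected genes. Bmp4-202 held 54.2% in replicate 1 and 28.7% in replicate 2, and Bmp4-201 held 2.44% and 32.9%. Both have a coding length of 1224 bases, and the shares rest on 200 and 170 counts for the whole gene. The read-based tables gave Bmp4-202 59.6% and 43.2% and Bmp4-201 29.8% and 46.5%, so they named the same leading transcripts but put Bmp4-201 far higher in replicate 1. Acvrl1 was where the 2 quantifications parted most: Acvrl1-205 led with 44.3% and 48.1% in the alignment-based tables but was near 0 in the read-based ones, which put Acvrl1-201 first with 54.2% and 50.01%. Both transcripts have a coding length of 1506 bases. Read-based tables also put Eng-202 first in replicate 2 (39.5%, against 32.7% for Eng-201), and Id2-202 first in replicate 2 (51.9%). The shares of Acvrl1, Eng and Id2 transcripts are therefore uncertain. Their gene counts rest on all reads of the gene. Gene TPM is scaled for transcript length and so also depends on these shares.

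**Figure D4:**
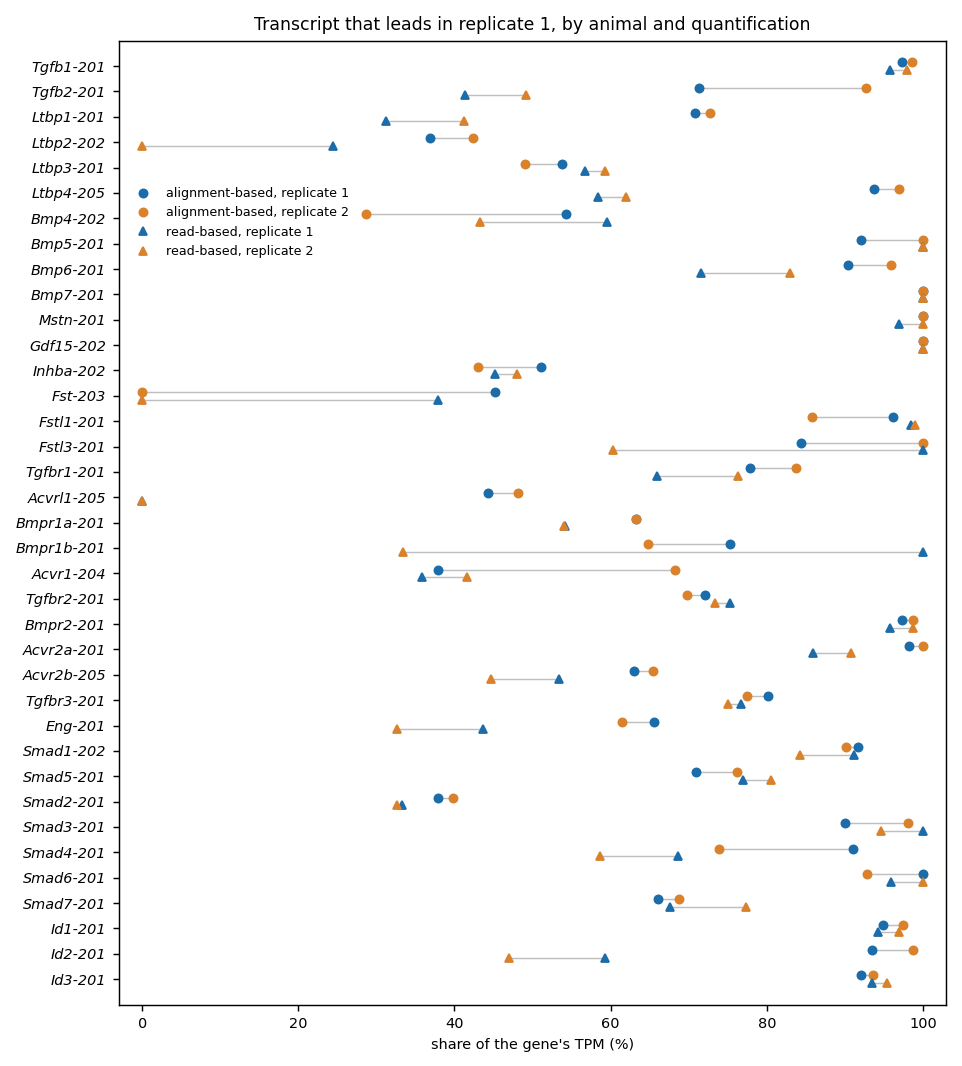
Share of its gene, in % of TPM, of the transcript that led in replicate 1, for the 37 genes with several transcripts; circles are alignment-based, triangles read-based, and colours are the animals. Fst-203, Bmp4-202 and Acvr1-204 show wide gaps between the animals, that of Fst-203 on few counts, and Acvrl1-205 lies near 0 in the read-based tables.

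The other 98 genes of the pathway held 55 detected genes and 7 listed at 0 in both animals (Bmp8b, Gdf3, Inhbe, Tdgf1, Cfc1, Grem1 and Cer1). None of the 75 tested passed the full rule. At an adjusted p under 0.05 at any ratio, 26 were higher in replicate 1 and 4 in replicate 2, beside 10.9% and 9.42% of all genes. The highest antagonists in the matrix were Dcn (166 and 153 TPM), Bgn (86.3 and 70.8 TPM) and Htra1 (54.7 and 51.1 TPM). Only 1 of 19 other ligands was detected, Inha with 1.91 and 2.06 TPM, ahead of Gdf10 (0.67 and 0.46 TPM) and Lefty1 (0.36 and 0.28 TPM). Of other receptors and co-receptors, Rgma had 27.8 and 31.9 TPM, Rgmb 11.6 and 10.5 TPM, and the decoy receptor Bambi 1.58 and 2.11 TPM.

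Genes that process, store or release the ligands, and genes known as targets of the pathway, held most of those differences. At an adjusted p under 0.05, 9 of 16 processing genes were higher in replicate 1 and 1 in replicate 2, beside 10.9% and 9.42% of all genes. Among them were Furin, the protease that cuts the precursors, at 45.2 and 38.3 TPM, and Fbn1, the fibrillin that anchors the binding proteins, at 31.9 and 25.2 TPM. The integrin subunit gene Itgb5, at 30.8 and 28.4 TPM, did not pass (adjusted p = 0.434). By the same threshold, 11 of 16 other targets were higher in replicate 1 and 0 in replicate 2, beside the same shares of all genes. By direction alone, 14 were higher in replicate 1 and 2 in replicate 2, with a median log2 ratio of -0.31. Of all genes, 49.8% were higher in replicate 1 by direction alone. Acta2 had 133 and 99.4 TPM, Col1a1 81.1 and 61.7 TPM, and Col1a2 72.0 and 56.1 TPM. Small ratios pass on many counts: Col1a1 passed at a ratio of 1.24 on 15930 and 12506 counts. Of 19 intracellular regulators, 3 were higher in replicate 1 and 1 in replicate 2 at an adjusted p under 0.05, and 9 and 10 by direction alone. The 3 with the highest levels, Fkbp1a at 95.6 and 91.6 TPM, Ppm1a at 85.9 and 83.3 TPM and Usp9x at 59.8 and 55.0 TPM, did not pass. Markers of fibroblasts summed to 341 and 297 TPM (3 of 6 higher in replicate 1 at an adjusted p under 0.05) and those of smooth muscle to 184 and 134 TPM (3 of 4). No gene of either list was at 0. Acta2, Tagln and Col1a1 stand both among the targets and in these marker lists, and the part of those cells in the differences was not tested.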

How the data were processed

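Total RNA of 2 hearts was sequenced, 1 library per animal. Per the deposited listings, the authors quantified on mm10 with GENCODE M21. The sources used here name no aligner, counter or version, and do not say whether counting used strand. The deposited gene tables give expected counts, TPM, posterior mean TPM and bounds of a credibility interval of unstated level, a score here. The deposited transcript tables add the percent of a gene's TPM held by each transcript, and a second, read-based set gives expected counts and TPM.

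The 44 genes and all lists were chosen with earlier results of these data known. All 44 are named, with the 3 highest genes of each role of the other pathway genes and the leading transcripts. The optional segments, internal starts and promoters were chosen after their values were seen. Expected counts were rounded and scaled with TMM (edgeR 4.0.16, over genes averaging 10 counts or more), and each gene was tested by a two-sided exact binomial test, Benjamini-Hochberg adjusted over 15839 genes. A called gene has an adjusted p under 0.05, a ratio of at least 2 and separate intervals. Pairs were compared as log2 ratios of TPM + 0.1. Because each animal gives 1 value, a two-sided exact sign-flip test over 2 animals cannot go below 0.5, so none is given. The test was checked on simulated counts that held counting error alone, so the check does not cover spread between animals. The 95% intervals are exact and hold counting error alone. ERCC spike-ins and 26249 entries that are not genes of the annotation (0 and 4.9 counts) were left out of library sizes and tests.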

Additional observations from a re-analysis of the deposited data

How the results depend on the processing

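The count of 0 genes of the pathway called between the animals also came from DESeq2 size factors, total counts, spike-in totals, a mean count of at least 1 or of 50, tests without the credibility intervals and read-based counts, and so did the 0 of the other pathway genes. With a ratio of 1.5 asked for, 1 gene (Bmp10) and 2 other pathway genes (Ccn2 and Cdkn1a) were called, and by adjusted p alone 10 and 30. That last count for the 44 genes was 10, 11, 15 and 13 with DESeq2 size factors, total counts, spike-in totals and read-based counts (chosen after seeing the data), and all 15 under spike-in scaling were higher in replicate 1. Spike-in scaling moved the log2 ratio of every gene, in the pathway or not, by -0.10. The shares of all genes under these 4 settings are not given here, so the counts are not read as particular to the pathway. Id3 was gained in all 4, Fstl3 with total counts and spike-in totals, Id1 with spike-in totals and read-based counts, Ltbp1 with read-based counts, and Smad4, Smad5, Smad7, Ltbp3 and Bmpr2 with spike-in totals. Bmpr1a was lost with DESeq2 size factors, total counts and spike-in totals, and Smad3 and Smad9 with spike-in totals. Spike-in scaling turned the direction of 11 log2 ratios: Acvr1 (-0.055), Acvr1b (-0.047), Acvr2a (-0.028), Bmpr1a (-0.015), Inhbb (-0.0090), Ltbp1 (-0.019), Smad1 (-0.025), Smad2 (-0.0086), Smad6 (-0.084), Tgfbr2 (-0.071) and Tgfbr3 (-0.082). Total counts turned Smad6 (-0.015), Tgfbr2 (-0.0011) and Tgfbr3 (-0.012), and read-based counts turned Tgfb2 (0.015). The ratio of TPM turned Acvr1 (-0.12), Acvr1b (-0.031), Acvr2a (-0.034), Bmpr1a (-0.0082), Ltbp1 (-0.0042), Smad2 (-0.17), Smad4 (0.12), Tgfbr2 (-0.088) and Tgfbr3 (-0.029). Spike-in totals and total counts shift every log2 ratio by a constant, -0.10 and -0.03. The genes they turned had positive log2 ratios smaller than that shift. The cause of the other turns was not tested. Of all the genes turned, only Bmpr1a had passed.

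Detection ranged from 30 to 37 genes over the other limits and estimates, with 31 without replicate 1 and 34 without replicate 2. Pairs in 1 order numbered 23 of 25, and 24 by read-based or posterior mean TPM, with Bmp5 and Bmp7 unordered throughout. With 1 animal left out there is no SD, so that count has no value. The 4 segment shares moved by more than their SD in the read-based tables, and Ltbp4's internal start fell to 80.8%. Read-based levels were above alignment-based ones for 42 of 44 genes, by a median of 1.17 times. No paired analysis was possible because there is only 1 group. Genes under about 20 counts, such as Mstn, Gdf15, Bmpr1b and Fst, are limited by depth.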
